A study of Mus musculus with 54 samples.

Results

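Matrix metalloproteinases (MMPs) and their inhibitors were described in the 2 sides of cultured mouse follicles, with and without an ovulatory stimulus. The set was chosen by gene symbol and held 10 of the 25149 genes in the expression tables, namely the proteases Mmp2, Mmp9, Mmp11, Mmp14, Mmp15 and Mmp19 and the inhibitors Timp1, Timp2, Timp3 and Reck. All 10 symbols were present in both the count and the TPM table.

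MMPs are zinc-dependent enzymes that cut proteins of the extracellular matrix. Mmp2 and Mmp9 encode the gelatinases, which digest denatured collagen and basement membrane collagen. Mmp14 and Mmp15 encode membrane-type MMPs, which stay anchored at the cell surface. Mmp11 encodes stromelysin-3, which leaves the cell already activated by furin, and Mmp19 encodes a secreted MMP. Tissue inhibitors of metalloproteinases (TIMPs) bind MMPs at the active site, and the protein of Timp3 is retained in the matrix. Reck encodes an inhibitor anchored in the cell membrane. In the ovary, matrix breakdown at the follicle apex accompanies rupture, and granulosa cells are known to induce Timp1 in response to the luteinizing hormone surge. Transcript levels say nothing of whether a protease was activated or bound by its inhibitor.

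Follicles were taken from CD-1 mice aged 14 to 16 days, grown in alginate for 8 days and then kept for 12 h in maturation medium with FBS, EGF and recombinant FSH, either with hCG, which acts on the luteinizing hormone receptor and triggers ovulation, or without it. Each follicle was then cut into the side that ruptured, or was predicted to rupture, and the side opposite, and a single side gave a Smart-Seq2 library. The 4 groups were the unruptured side without hCG (n = 15), the putative ruptured side without hCG (n = 14), the unruptured side post-hCG (n = 12) and the ruptured side post-hCG (n = 13), 54 libraries in all. All groups shared the mouse strain, the culture and the base medium, and follicles without hCG did not ovulate, so their ruptured side was a prediction from follicle shape. The labels do not tie libraries to animals or dissection days, so p-values measure the spread between these libraries.

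Total counts per library ranged from 1497138 to 2834794, with a median of 2157135. In the labels the tissue is the cumulus-oocyte complex, but by the study's methods such complexes were removed before sequencing. The 9 oocyte markers summed to a median of at most 0.2 TPM in every group, and 5 libraries reached at least 5 TPM (unruptured without hCG replicates 1, 7 and 10, putative ruptured without hCG replicate 12 and unruptured post-hCG replicate 4). The 10 granulosa markers summed to at least 880.6 TPM in every library. The 13 theca and stroma markers differed strongly between groups, and their values are given beside the results. In these pieces of tissue, fewer cells of a type and less RNA per cell cannot be told apart. Library names in the labels end in a letter and a number, and what the letter stands for is not given in the sources used here. The letters differed mostly between groups, and only letter G was shared by the 2 sides without hCG (5 libraries each) and letter C by the 2 sides post-hCG (4 unruptured, 5 ruptured). No letter was shared between media, so name letter and hCG cannot be told apart.

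The promoters of Timp1 and Timp3 are shown because the transcripts of these inhibitors moved in opposite directions post-hCG. RefSeq promoter windows, from 250 bases before to 50 bases after the transcription start, were available for 7 of the 10 members on build GRCm38.p6. Mmp2, Mmp9 and Mmp19 had no entry. The windows were searched on both strands for the AP-1 site TGANTCA, its variant TGAGTAA, the CRE core TGACGT and the GC box GGGCGG (no matches overlapped in the members' windows). The stretch before the start is printed below on the plus strand for Timp1 (chrX:20869916-20870165) and Timp3 (chr10:86300162-86300411), with capitals marking a match to any of these letters.
Timp1: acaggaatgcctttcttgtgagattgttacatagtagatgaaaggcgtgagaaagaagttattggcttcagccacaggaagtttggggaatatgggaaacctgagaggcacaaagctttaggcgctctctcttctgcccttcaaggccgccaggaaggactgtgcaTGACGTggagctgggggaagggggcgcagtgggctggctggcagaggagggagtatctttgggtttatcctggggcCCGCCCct
Timp3: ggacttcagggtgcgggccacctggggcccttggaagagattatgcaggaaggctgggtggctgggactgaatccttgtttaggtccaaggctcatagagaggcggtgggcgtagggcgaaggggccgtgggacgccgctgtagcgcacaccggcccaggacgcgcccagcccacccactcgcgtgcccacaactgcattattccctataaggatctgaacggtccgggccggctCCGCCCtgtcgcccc

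The Timp1 window held a CRE core at positions −84 to −79 relative to the start, a GC box at −8 to −3 and the AP-1 variant at 26 to 32 after the start, which lies past the printed stretch. The Timp3 window held a GC box at −15 to −10 and another at 13 to 18, and neither of the other kinds. Of 32851 RefSeq promoter windows of the same length, 7.51% held the CRE core, 2.68% the AP-1 variant, 7.81% the AP-1 site and 35.7% a GC box. Each of the other 5 members with a window (Mmp11, Mmp14, Mmp15, Timp2 and Reck) held GC boxes and none of the other letters. The starts are those of RefSeq and can differ from the gene bounds given below. The Mmp11 window (chromosome 10, 75932453 to 75932752) lay inside the bounds of that gene. The printed Timp3 stretch ran past the lower bound of its gene. A match is a run of letters and no measurement of binding.

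On GRCm38, Timp1 lies on chromosome X (20870166 to 20874735) and overlaps Syn1, and Timp3 on chromosome 10 (86300372 to 86349506) and overlaps Syn3, in both cases on the other strand. Mmp11 (chromosome 10, 75923222 to 75936496) overlaps Chchd10, and Mmp19 (chromosome 10, 128790910 to 128800824) overlaps Gm47093 and Tmem198b, on the other strand. Timp2 (chromosome 11, 118301069 to 118355740) and Reck (chromosome 4, 43875530 to 43944806) overlap Cep295nl and Gm27265 on the same strand. The remaining members were Mmp9 on chromosome 2 (164940780 to 164955850), Mmp2 and Mmp15 on chromosome 8 (92827291 to 92853420 and 95352268 to 95375080) and Mmp14 on chromosome 14 (54431612 to 54445364), with no overlapping gene. The values cover whole genes, and the sources used here do not state whether counting used strand, so reads of overlapping partners cannot be told apart.

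Timp1 had the highest median TPM of the 10 members in every group, and it rose with hCG on both sides. Without hCG, Timp1 ran from 77.7 to 1483 TPM (median 639) on the unruptured side, and the putative ruptured side ran from 38.6 to 793 TPM (median 124). The post-hCG ranges were 2238 to 3922 TPM (median 2993) for the unruptured and 1321 to 2361 TPM (median 1753) for the ruptured side. Within each side, every post-hCG library lay above every library without hCG. The median rose 4.68-fold on the unruptured side and 14.1-fold on the ruptured side. In edgeR's quasi-likelihood test, with the false discovery rate (FDR) adjusted over all genes tested, the log2 fold change was 2.06 (SE 0.27, FDR 9.07e-08) on the unruptured side and 3.02 (SE 0.33, FDR 1.77e-09) on the ruptured side.

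The unruptured side held more Timp1 in both media. Without hCG, the log2 fold change of the putative ruptured against the unruptured side was −1.54 (SE 0.38, FDR 0.0041), with 13 of 14 libraries of the former under the median of the latter. Post-hCG it was −0.57 (SE 0.12, FDR 0.00082), and 12 of 13 ruptured libraries lay below the lowest unruptured library. The call post-hCG was lost when all 4 groups shared a single fit (log2 fold change −0.56, FDR 0.22). The side difference of Timp1 was not shown to differ between media (interaction 0.97, SE 0.43, FDR 0.148).

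**Figure D1:**
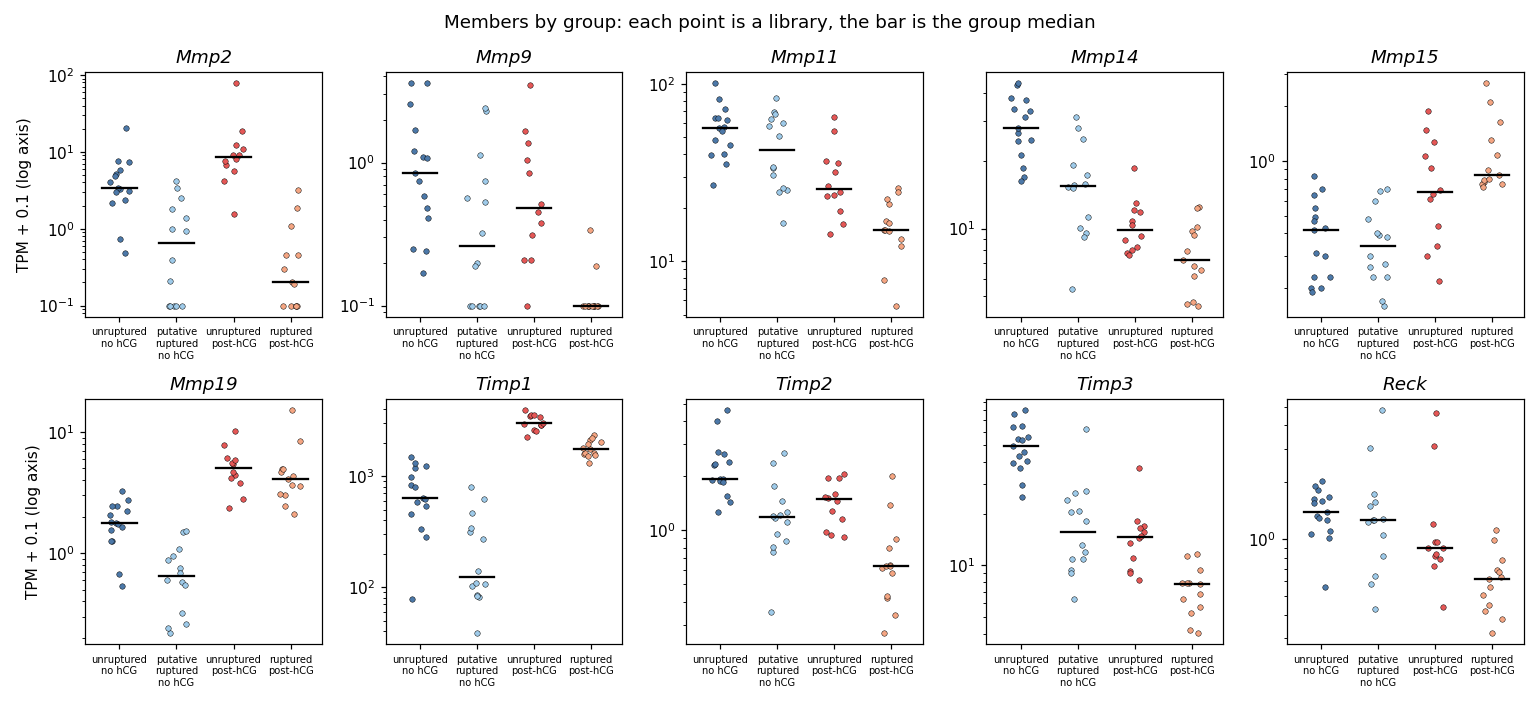
TPM plus 0.1 of the 10 members in each library (vertical log axes, which differ between panels), with the 4 groups along the horizontal axis, a point per library and a bar at the group median. Timp1 medians run from 124 TPM on the putative ruptured side without hCG to 2993 TPM on the unruptured side post-hCG, while the medians of Timp3 and Mmp14 are highest on the unruptured side without hCG (49.4 and 27.7 TPM).

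Timp3 moved opposite to Timp1 with hCG. It ran from 24.9 to 80.1 TPM (median 49.4) on the unruptured side without hCG and from 8.16 to 36.8 TPM (median 14.5) on the same side post-hCG, where 11 of 12 libraries lay below the lowest library without hCG. The ruptured side went from a range of 6.30 to 62.6 TPM (median 15.6) to a range of 3.94 to 11.6 TPM (median 7.66). Timp3 fell by 1.84 on the log2 scale on the unruptured side (SE 0.20, FDR 3.84e-09) and by 1.23 on the ruptured side (SE 0.26, FDR 0.00013). Like Timp1, it was lower on the putative ruptured side without hCG (log2 fold change −1.36, SE 0.25, FDR 0.00025) and on the ruptured side post-hCG (−0.76, SE 0.19, FDR 0.0035).

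Timp2, whose protein takes part in the activation of pro-MMP2 by MMP14, was low throughout, with medians of 1.81 and 1.38 TPM on the unruptured side without and post-hCG and of 1.08 and 0.53 TPM on the ruptured side. It was lower on the putative ruptured side without hCG (log2 fold change −1.01, SE 0.20, FDR 0.00064) and fell with hCG on the unruptured side (−0.94, SE 0.17, FDR 2.55e-05). Timp2 had too few counts for the expression filter in both comparisons that use the ruptured side post-hCG. Without that filter its log2 fold change was −0.93 between sides post-hCG (SE 0.25, FDR 0.0094) and −0.86 for hCG on the ruptured side (SE 0.28, FDR 0.016).

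Reck had medians of 1.30 and 0.80 TPM on the unruptured side without and post-hCG and of 1.17 and 0.52 TPM on the ruptured side. It fell with hCG on the unruptured side (log2 fold change −0.76, SE 0.18, FDR 0.00085) and on the ruptured side (−0.70, SE 0.21, FDR 0.0053). The fall on the unruptured side did not pass with limma on log2(TPM + 1), where the value was −0.15 (FDR 0.51). In TPM, single libraries stood above the rest of their groups, namely putative ruptured replicate 14 without hCG at 4.70 TPM and unruptured replicate 1 post-hCG at 4.55 TPM. By counts these libraries did not stand out. They held 10 and 13 Reck counts, while the highest libraries of their groups held 20 and 17. The limma fit used these TPM values, whereas edgeR used counts. Between sides, Reck did not pass without hCG (−0.40, SE 0.19, FDR 0.138) and was under the filter post-hCG (without it −0.33, SE 0.23, FDR 0.41).

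Among the proteases, Mmp2 showed the largest side differences. On the unruptured side it ran from 0.38 to 20.5 TPM (median 3.26) without hCG and from 1.44 to 78.6 TPM (median 8.38) post-hCG. The putative ruptured side without hCG ran from 0 to 4.03 TPM (median 0.56), with 5 of 14 libraries at 0, and the ruptured side post-hCG from 0 to 3.13 TPM (median 0.10), with 5 of 13 libraries at 0. The log2 fold change of the ruptured against the unruptured side was −2.33 without hCG (SE 0.54, FDR 0.0023) and −4.85 post-hCG (SE 0.63, FDR 1.12e-06). Post-hCG, 11 of 13 ruptured libraries lay below the lowest unruptured library. The side difference was larger post-hCG by 2.51 on the log2 scale, which did not pass as an interaction (SE 0.94, FDR 0.082).

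Mmp2 was higher post-hCG than without hCG on the unruptured side (log2 fold change 1.61, SE 0.47, FDR 0.0048). A single library, unruptured replicate 4 post-hCG at 78.6 TPM, held 49.6% of the group's Mmp2 counts. Without it the log2 fold change was 0.78 and did not pass (SE 0.37, FDR 0.079). On the ruptured side, Mmp2 was under the filter for the comparison of media (without the filter −0.93, SE 0.66, FDR 0.30).

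Mmp9, the other gelatinase, was close to the limit of detection. Its median was 0.74 TPM on the unruptured side without hCG, 0.16 TPM on the putative ruptured side, 0.38 TPM on the unruptured side post-hCG and 0 TPM on the ruptured side post-hCG. There, 11 of 13 libraries had no count, and the group held 4 counts in all, against 76 counts in the 12 unruptured libraries, so Mmp9 was at the edge of what this depth can show. Unruptured replicate 7 held 36.8% of those 76 counts. Mmp9 passed the filter in none of the 5 comparisons. Without the filter, it was lower on the ruptured side post-hCG (log2 fold change −3.78, SE 0.68, FDR 9.86e-05) and lower with hCG on the ruptured side (−3.40, SE 0.79, FDR 0.00059), while it did not pass between the sides without hCG (−0.95, SE 0.52, FDR 0.29) or between media on the unruptured side (−0.58, SE 0.47, FDR 0.38).

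Mmp11 and Mmp14 made up most of the transcripts of the 6 MMPs in the set. Outside the set, Mmp23 had a higher median TPM than Mmp14 on the ruptured side in both media (values below). Mmp11 took a median of 61.3%, 69.6%, 52.7% and 55.1% of the summed TPM of the 6 MMPs in the order unruptured without hCG, putative ruptured, unruptured post-hCG and ruptured, and Mmp14 32.5%, 26.4%, 19.3% and 25.0%. Both fell with hCG on both sides. Median Mmp11 went from 56.7 to 25.4 TPM on the unruptured side (log2 fold change −0.57, SE 0.20, FDR 0.015) and from 42.4 to 14.9 TPM on the ruptured side (−1.21, SE 0.16, FDR 9.57e-08). Median Mmp14 went from 27.7 to 9.76 TPM on the unruptured side (−1.54, SE 0.16, FDR 7.62e-10), where 11 of 12 post-hCG libraries lay below the lowest library without hCG, and from 15.4 to 7.17 TPM on the ruptured side (−0.86, SE 0.20, FDR 0.00043).

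Between sides, the members of this pair passed in different media. Without hCG, Mmp14 was lower on the putative ruptured side (log2 fold change −0.77, SE 0.20, FDR 0.0069) and Mmp11 did not pass (−0.33, SE 0.15, FDR 0.143, although it did with putative ruptured replicate 5 left out, at −0.42 and FDR 0.033). Post-hCG, Mmp11 was lower on the ruptured side (−0.97, SE 0.21, FDR 0.00092) and Mmp14 did not pass (−0.09, SE 0.14, FDR 0.69). Neither passed the test of the interaction of side and hCG (Mmp11 −0.64, SE 0.26, FDR 0.116, Mmp14 0.68, SE 0.26, FDR 0.090).

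Mmp19 rose with hCG on both sides, and its side difference passed without hCG but not post-hCG. Without hCG, the range was 0.44 to 3.14 TPM (median 1.68) for the unruptured and 0.12 to 1.43 TPM (median 0.55) for the putative ruptured side. Post-hCG the ranges were 2.24 to 10.1 TPM (median 4.96) and 2 to 15.02 TPM (median 4.03). All 13 ruptured libraries post-hCG lay above all 14 putative ruptured libraries without hCG, and 10 of 12 unruptured libraries post-hCG above the highest without hCG. The log2 fold change with hCG was 1.49 on the unruptured side (SE 0.21, FDR 5.27e-07) and 2.92 on the ruptured side (SE 0.27, FDR 5.64e-11). Between sides it was −1.41 without hCG (SE 0.28, FDR 0.00057) and 0.01 post-hCG (SE 0.22, FDR 0.99). Mmp19 was the only 1 of 9 members tested to pass the interaction of side and hCG (1.43, SE 0.36, FDR 0.0080), a test that 8.91% of 10013 genes passed (4.25% with a positive and 4.65% with a negative value). With limma on log2(TPM + 1) the interaction did not pass (0.59, FDR 0.157).

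Mmp15 had a median of at most 0.74 TPM in any group. It rose with hCG on the ruptured side (log2 fold change 2.11, SE 0.26, FDR 2.85e-08), from a range of 0.06 to 0.60 TPM to a range of 0.62 to 2.59 TPM, with no overlap. It was the single member higher on the ruptured side post-hCG (0.83, SE 0.29, FDR 0.037), a call lost when any of 10 single libraries was left out, with a highest FDR of 0.086, and with scaling to library totals (0.70, FDR 0.091). Mmp15 was under the filter in both comparisons of the unruptured side without hCG, where the values without the filter were −0.19 between sides (SE 0.34, FDR 0.78) and 1.09 with hCG (SE 0.34, FDR 0.013).

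**Figure D2:**
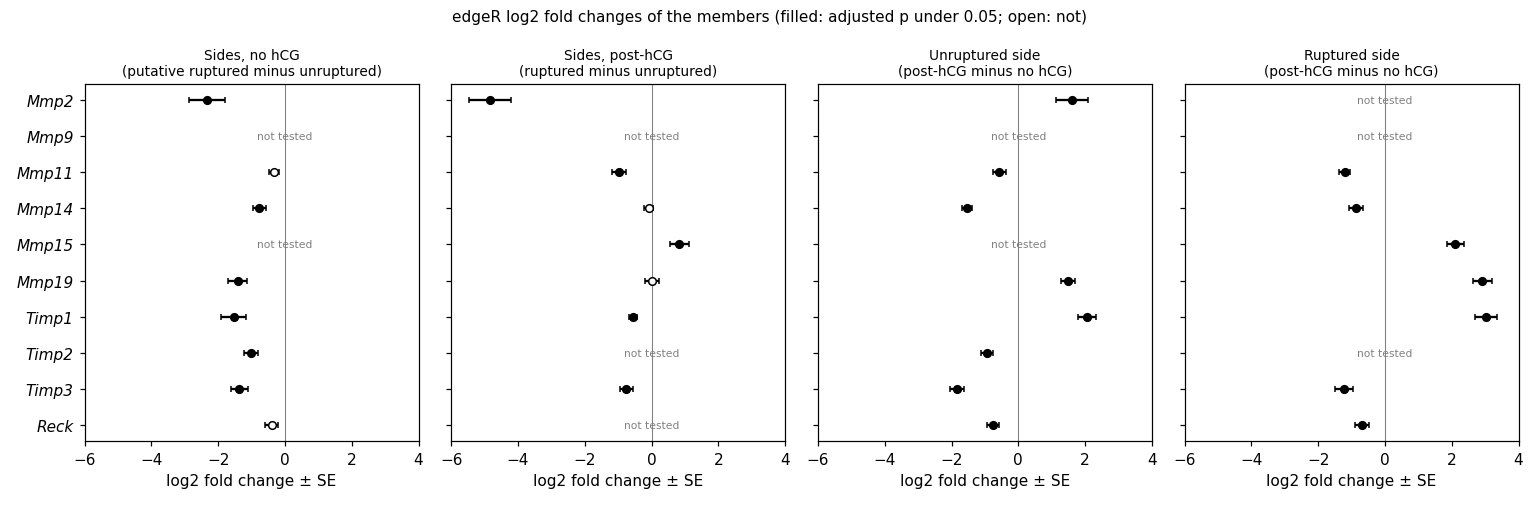
log2 fold changes with standard errors (horizontal axis) of the 10 members (rows) in the 4 pairwise comparisons, with filled points for an FDR under 0.05, open points for the rest and a note where a member was under the expression filter. All points between sides without hCG lie below 0, whereas with hCG Timp1 and Mmp19 lie above 0 and Timp3, Mmp14, Mmp11 and Reck below 0 on both sides.

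Counted together, 6 of the 8 members tested passed between sides without hCG, all of them lower on the putative ruptured side (Mmp2, Mmp14, Mmp19, Timp1, Timp2 and Timp3). Of the 9063 genes tested there, 17.8% passed, 8.84% higher and 8.96% lower. Post-hCG, 5 of 7 passed between sides, with Mmp2, Mmp11, Timp1 and Timp3 lower and Mmp15 higher on the ruptured side, against 21.4% of 8585 genes (10% higher, 11.3% lower). With hCG, 8 of 8 members tested passed on the unruptured side and 7 of 7 on the ruptured side, where 53.1% of 9320 genes (25.4% higher, 27.7% lower) and 60.1% of 8531 genes (29.7% higher, 30.4% lower) passed. On the unruptured side Timp1, Mmp19 and, with all libraries kept, Mmp2 were higher with hCG, and the rest tested were lower. On the ruptured side Timp1, Mmp19 and Mmp15 were higher with hCG, and the rest tested were lower. A member near the filter is tested only where one of its groups is high enough, so these counts describe the members that passed the filter. The median log2 fold change of the members tested was −1.19 and −0.57 between sides without and post-hCG and −0.67 and −0.70 with hCG on the unruptured and ruptured sides, while that of all genes tested lay between −0.03 and 0.01.

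Without hCG, the side differences did not pass within a single name letter. Among the libraries of letter G (5 against 5), none of 7 members tested passed and 3 of 9068 genes did. There the log2 fold changes kept their sign but were smaller than over all libraries for Mmp2 (−1.14, SE 0.90), Timp1 (−0.65, SE 0.65), Timp2 (−0.58, SE 0.28) and Timp3 (−0.98, SE 0.46), while Mmp14 was at 0.03 (SE 0.25) and Mmp19 was under the filter. Post-hCG, within letter C (4 against 5), where 748 of 9004 genes passed, Mmp2 (−3.78, SE 0.44, FDR 4.06e-05), Timp1 (−0.84, SE 0.21, FDR 0.019) and Timp3 (−0.98, SE 0.21, FDR 0.0062) passed, Mmp15 did not (1.00, SE 0.41, FDR 0.151), and Mmp11, at 0.01 (SE 0.19, FDR 0.99), did not. Without the 5 libraries with oocyte markers, as many members passed between sides without hCG (6 of 8) and with hCG on the unruptured side (8 of 8), 6 of 6 passed with hCG on the ruptured side, and 4 of 7 passed between sides post-hCG, where Mmp15 was lost (FDR 0.053). In these fits 1303 of 8938, 4734 of 9163, 5010 of 8441 and 1682 of 8631 genes passed, in the same order.

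The balance of protease to inhibitor transcripts was taken per library as the log2 ratio of the summed TPM of the 6 MMPs plus 1 to that of the 4 inhibitors plus 1. By this ratio every library held more inhibitor than protease transcript. With all 22 MMP genes over all TIMP genes and Reck this did not hold, since the highest library, putative ruptured replicate 3 without hCG, was at 0.37. The ratio ran from −4.10 to −0.39 on the unruptured side without hCG (mean −2.88 ± 0.95 SD, n = 15) and from −3.37 to −0.09 on the putative ruptured side (−1.74 ± 1.06, n = 14). Post-hCG it ran from −6.70 to −4.72 on the unruptured side (−5.71 ± 0.65, n = 12) and from −6.64 to −5.02 on the ruptured side (−5.88 ± 0.49, n = 13). Post-hCG libraries of each side lay below all libraries of that side without hCG. The putative ruptured side exceeded the median of the unruptured side in 11 of 14 libraries without hCG, whereas the sides overlapped throughout post-hCG. No test was run on the ratio, since its members were chosen with results known.

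The protease sum fell from a median of 88.6 to 51.0 TPM on the unruptured side and from 59.2 to 29.9 TPM on the ruptured side between media, while the inhibitor sum rose from 710 to 3012 TPM and from 150 to 1761 TPM. Timp1 alone made up a median of 92.6% and 90.9% of the inhibitor sum on the unruptured and putative ruptured sides without hCG and 99.5% on both sides post-hCG. With Timp1 left out, the mean ratio was above 0 in all groups (0.81 and 1.60 without hCG, 1.71 and 1.73 post-hCG), and the change with hCG turned from −2.83 to 0.90 on the unruptured side and from −4.14 to 0.13 on the ruptured side. The difference between sides post-hCG, −0.16, was smaller than the spread between libraries and turned to 0.14 with Mmp2 left out.

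**Figure D3:**
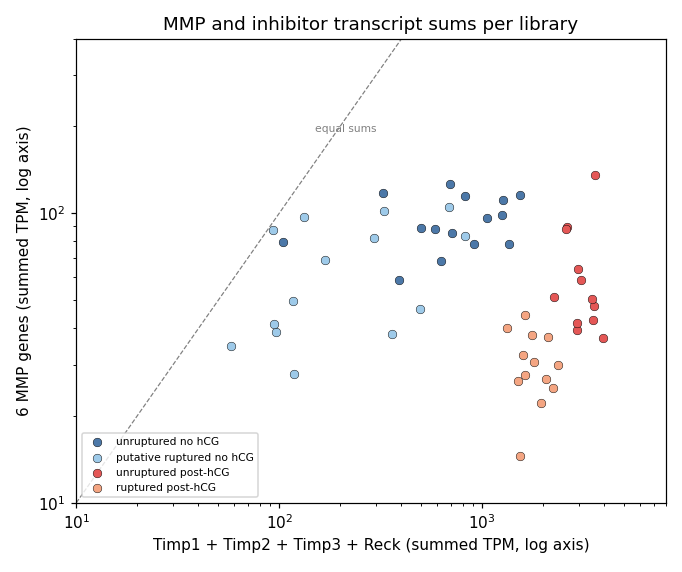
Summed TPM of the 6 MMPs (vertical log axis) against that of the 4 inhibitors (horizontal log axis), a point per library coloured by group, with a dashed line at equal sums. All points lie on the inhibitor side of the line, and the post-hCG libraries, at median inhibitor sums of 3012 and 1761 TPM, lie farthest from it.

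Theca and stroma marker transcripts differed between the groups in the same direction as Mmp2 between sides. The 13 markers summed to 37.6 to 2796 TPM on the unruptured side without hCG, 6.85 to 578 TPM on the putative ruptured side, 77.6 to 1338 TPM on the unruptured side post-hCG and 3.84 to 55.4 TPM on the ruptured side post-hCG. Of the markers tested, 7 of 9 were lower on the putative ruptured side without hCG and 5 of 6 on the ruptured side post-hCG. With hCG, 6 of 9 were lower on the unruptured side (median log2 fold change −1.52) and 3 of 4 on the ruptured side (median −3.50). Of all genes tested, 8.96% and 11.3% were lower on the ruptured side without and post-hCG. With hCG, 27.7% and 30.4% of all genes tested were lower on the unruptured and ruptured sides. Timp3, Mmp14, Mmp11 and Reck fell on both sides too, and Timp2 on the unruptured side. Timp1 and Mmp19 went the other way on both sides, as did Mmp2, with all libraries kept, on the unruptured side and Mmp15 on the ruptured side. The theca enzyme gene Cyp17a1 was at 0 in all ruptured libraries post-hCG, and Gli1 in all unruptured libraries post-hCG. Each of these genes also had a median count of 0 on the opposite side post-hCG. Of the 13 markers, 3 had a median count of 0 on the unruptured and 7 on the ruptured side post-hCG. Of the granulosa markers tested, 7 of 9 were higher on the putative ruptured side without hCG, and 2 were higher and 1 lower of 6 on the ruptured side post-hCG. With hCG, 7 of 9 granulosa markers were lower and 2 higher on the unruptured side, and 7 of 9 lower and 1 higher on the ruptured side. Of all genes tested, 8.84% and 10% were higher on the ruptured side without and post-hCG. With hCG, 25.4% and 29.7% of all genes tested were higher on the unruptured and ruptured sides. Immune markers summed to at most 154 TPM and 37.5 TPM on the 2 sides without hCG and 96.7 TPM and 3.83 TPM post-hCG, highest on the unruptured side in both media. The part of these cell types in the differences between sides and between media was not tested.

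Within groups, member levels were set against the mean log2(TPM + 1) of the theca and stroma markers, 40 relations in all, with permutation tests adjusted over the 40. The relation passed for 12, each with a positive r, and for Mmp2 in all 4 groups. It was not computed for genes outside the set, so how common such a relation is among all genes is not known. By rho 11 passed, all but that of Mmp19 on the unruptured side post-hCG, with log2 CPM 11, and with the collagens taken out of the marker list 9. For Mmp2, r was 0.80 (rho 0.77) on the unruptured side without hCG, 0.87 (rho 0.80) on the putative ruptured side, 0.83 (rho 0.85) on the unruptured side post-hCG and 0.87 (rho 0.73) on the ruptured side post-hCG, with permutation p of 0.00078, 0.0002, 0.00028 and 0.0022 for r (0.0062, 0.0037, 0.0037 and 0.011 adjusted) and of 0.0014, 0.0012, 0.00075 and 0.0071 for rho (at most 0.032 adjusted). Without the 2 libraries farthest from the median marker level, r was 0.56, 0.82, 0.79 and 0.32, so the last rests on ruptured replicates 4 and 13. Within the name letters that held at least 6 libraries of a group, r for Mmp2 was 0.70 (letter F, n = 10), 0.83 (letter H, n = 9), 0.85 (letter B, n = 8) and 0.94 (letter D, n = 8). Letter D includes ruptured replicate 13, its highest library in both marker mean (1.33, next 0.69) and Mmp2 log2(TPM + 1) (1.48, next 0.26). A value without it was not computed.

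The other relations that passed by r were those of Mmp19 in 3 groups, Timp3 and Mmp9 on the putative ruptured side, and Mmp14, Mmp15 and Reck on the unruptured side without hCG. For Timp3, r was 0.88 (rho 0.92, permutation p = 3e-05 for r and 2e-05 for rho, 0.0012 adjusted for r), with r = 0.86 without the 2 farthest libraries and 0.92 within letter H (n = 9). For Mmp19, r was 0.70 (rho 0.66) on the unruptured side without hCG, 0.75 (rho 0.76) on the putative ruptured side and 0.80 (rho 0.65) on the unruptured side post-hCG (permutation p 0.0036, 0.0026 and 0.0019 for r, adjusted 0.013, 0.012 and 0.011, and 0.0090, 0.0023 and 0.026 for rho, adjusted 0.035, 0.018 and 0.086, so the last did not pass by rank), 0.41, 0.74 and 0.54 without the 2 farthest libraries and 0.89, 0.78 and 0.96 within letters F, H and B, and −0.18 in the ruptured group post-hCG, which did not pass. For Mmp9 r was 0.69 (rho 0.68, permutation p 0.0047 and 0.0095, adjusted 0.016 for r), for Mmp14 0.71 (rho 0.73, 0.0017 and 0.0029, adjusted 0.011), for Mmp15 0.69 (rho 0.70, 0.0031 and 0.0052, adjusted 0.012) and for Reck 0.82 (rho 0.70, 0.00055 and 0.0046, adjusted 0.0055), and without the 2 farthest libraries r was 0.77, 0.65, 0.63 and 0.57. Within letter H, r was 0.74 for Mmp9, and within letter F it was 0.64 for Mmp14, 0.74 for Mmp15 and 0.73 for Reck. Timp1 passed in no group, with r between 0.41 and 0.62 and adjusted permutation p between 0.062 and 0.33. Mmp11 passed in none either, with r between −0.29 and 0.23.

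**Figure D4:**
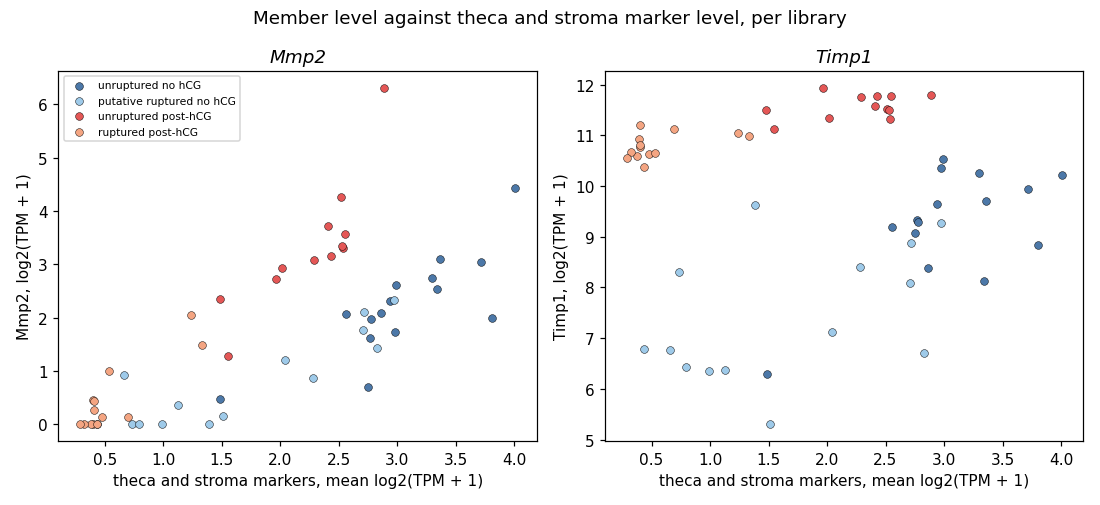
log2(TPM + 1) of Mmp2 (left) and Timp1 (right) against the mean log2(TPM + 1) of the 13 theca and stroma markers, a point per library coloured by group. Within each group Mmp2 is higher where the markers are higher (r from 0.80 to 0.87). On the ruptured side post-hCG, r is 0.32 without the 2 libraries farthest from the median marker level. For Timp1, r is between 0.41 and 0.62 and passed in no group. Post-hCG libraries of each side lie above all libraries of that side without hCG in Timp1.

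With group means subtracted, the genes whose log2(TPM + 1) was most like that of Mmp2 over the 54 libraries, among 9888 genes averaging 1 TPM or more, were Col3a1 (r = 0.80), Col1a2 (0.78), Gas7 (0.75), Dcn (0.75) and Col6a2 (0.75). For Timp1 they were Cd63 (0.84), Mrap (0.83), Tagln2 (0.83), Anxa2 (0.81) and Ifitm3 (0.81), and for Mmp14 Igfbp7 (0.78), Fzd1 (0.72), Tpbg (0.71), Col4a2 (0.70) and Txndc5 (0.69). Among the members themselves, Mmp14 was most like Timp3 (0.53) and Mmp2 most like Mmp19 (0.52), and the value for Mmp2 and Mmp11 was −0.01. These values share libraries and depth and are given as a description.

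Of 16 other MMP genes in the tables, at most 3 had enough counts to be tested in any comparison, and Mmp23 was the only one with a mean of at least 5 TPM in a group. Mmp23, an MMP that lacks the hemopexin domain of the other family members named here, went against the side pattern of Mmp2. Its median was 9.09 TPM on the unruptured and 19.8 TPM on the putative ruptured side without hCG, and 6.55 and 9.53 TPM post-hCG. It was higher on the ruptured side in both media (log2 fold change 0.99, SE 0.18, FDR 0.00017 without hCG and 0.82, SE 0.21, FDR 0.0038 post-hCG) and fell with hCG on both sides (−0.57, SE 0.19, FDR 0.012 on the unruptured and −0.72, SE 0.19, FDR 0.0016 on the ruptured side). The side difference of Mmp23 did not pass within letter G (0.78, FDR 0.30) or, post-hCG, with limma on log2(TPM + 1) (0.48, FDR 0.116). Adding all 22 MMP genes and the 5 inhibitors of the tables to the ratio turned the difference between sides post-hCG to 0.07. Timp4, the remaining TIMP, had a median of 0 TPM on both sides without hCG and post-hCG of 0.91 TPM (unruptured) and 1.08 TPM (ruptured), and was tested between sides post-hCG (0.61) and for the interaction (0.00), passing in neither.

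Of 18 genes for MMP activation, docking and clearance, Furin and Pcsk5, which encode proprotein convertases that cut pro-domains, rose with hCG on both sides. Median Pcsk5 went from 26.4 to 331 TPM on the unruptured side (log2 fold change 3.28, SE 0.24, FDR 5.94e-13) and from 23.0 to 292 TPM on the ruptured side (3.60, SE 0.23, FDR 6.81e-15). Median Furin went from 4.32 to 18.6 TPM (2.14, SE 0.16, FDR 4.39e-13) and from 3.20 to 15.3 TPM (2.46, SE 0.15, FDR 8.81e-16). Itgb3, a subunit of the integrin that docks MMP2, also rose on both sides (1.91, SE 0.19, FDR 4.48e-10 and 1.52, SE 0.16, FDR 6.68e-10). In all, 6 rose and 3 fell of 13 tested on the unruptured side, and 4 rose and 4 fell of 11 on the ruptured side, where 53.1% and 60.1% of all genes tested passed in either direction.

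Thbs1 and Thbs2 encode thrombospondins, matrix proteins that bind MMP2, and Cd44 encodes a cell surface receptor on which MMP9 can dock. Median Thbs1 went from 271 to 6.14 TPM with hCG on the unruptured side (log2 fold change −3.61, SE 0.58, FDR 4.33e-06) and from 463 to 3.43 TPM on the ruptured side (−7.11, SE 0.42, FDR 6.99e-16). Thbs2 fell on the unruptured side (−3.14, SE 0.27, FDR 2.10e-11), and Cd44 fell on both (−1.84, SE 0.22, FDR 2.33e-08 and −1.80, SE 0.31, FDR 6.82e-06).

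Between sides without hCG, Itgb3 (log2 fold change 0.98, SE 0.20, FDR 0.00057) and Itgav (0.70, SE 0.13, FDR 0.00034), subunits of the same integrin, were higher on the putative ruptured side, and Thbs2 (−1.02, SE 0.25, FDR 0.0034) and A2m, a broad protease inhibitor (−1.36, SE 0.43, FDR 0.024), were lower, 4 genes of 12 tested, against 17.8% of all genes. Of these, Itgav did not pass with limma on log2(TPM + 1) (0.57, FDR 0.052). A2m did not pass without the 5 libraries with oocyte markers (FDR 0.051). Post-hCG, Itgb3 was higher (0.58, SE 0.16, FDR 0.0069) and 5 genes were lower on the ruptured side, of which Thbs1 (−2.75, SE 0.56, FDR 0.00043), Bsg, which encodes an inducer of MMPs (−0.96, SE 0.11, FDR 2.86e-07), and Lrp1, a receptor that takes up MMPs (−0.57, SE 0.17, FDR 0.013), had the largest falls, 6 genes of 12 tested, against 21.4% of all genes. Post-hCG medians of Thbs1 were 6.14 TPM on the unruptured and 3.43 TPM on the ruptured side. The unruptured mean was 26.8 TPM and the highest unruptured library was at 118 TPM. Itgb3 did not pass between sides post-hCG with limma (0.21, FDR 0.35). Within letter C, Thbs1 was at −0.37 (FDR 0.50) and Lrp1 at 0.03 (FDR 0.94).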

How the data were processed

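The authors aligned paired-end Smart-Seq2 reads to GRCm38 with HISAT2, ran ComBat-seq against batch effects and computed TPM. The deposited tables hold estimated counts and TPM values per gene and library. The counting program, and whether the deposited tables follow the batch correction, are not given in the sources used here. The deposited TPM values of the 25149 coding genes summed to between 585982 and 678417 per library. All 54 columns matched a sample label.

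After rounding, low genes were dropped by filterByExpr (count parameter 10, total 15), and edgeR 4.0.16 (R 4.3.3) was run with TMM factors and its two-sided quasi-likelihood F-test (Benjamini-Hochberg, FDR threshold 0.05), each pair of groups on its own libraries and the interaction on all 4. Levels are TPM, and correlations used log2(TPM + 1) with 100000 permutations, two-sided (Python 3.11.15, scipy 1.17.1, pandas 2.3.3, numpy 2.4.6). Scripts were tested on simulated data. Alternatives were DESeq2 1.42.0, limma 3.58.1 on log2(TPM + 1 or 0.1), where the pseudocount of 1 understates fold changes of low genes, other scalings and filters, thinned counts, a replicate block, 1 name letter and left-out libraries. Leaving out the 5 libraries with at least 5 TPM of oocyte markers was added after seeing the data.

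The members and lists were chosen with earlier results of these data known. Of the other MMP, TIMP and activation genes, the 3 with the largest change per direction past the threshold are named in each comparison, and any other MMP or TIMP with a mean of at least 5 TPM. Of the marker lists, endothelial, smooth muscle and surface epithelium markers had 0 to 2 testable genes per comparison, with summed TPM of at most 13.4, 66.4 and 40.6 in any library.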

Additional observations from a re-analysis of the deposited data

Results flagged for a closer look

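The side difference depended on the medium, by the edgeR test of the interaction of side and hCG, for Mmp19 among the members and for 3 other genes named. For Mmp19 the interaction was 1.43 (SE 0.36, FDR 0.0080). The log2 fold change of the ruptured against the unruptured side went from −1.41 without hCG to 0.01 post-hCG, so the side difference was smaller post-hCG. In the fit without the 5 libraries with oocyte markers the interaction was 1.497 (FDR 0.0079).

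For Thbs1, the interaction was −3.51 (SE 0.65, FDR 0.00027), with medians of 271 and 463 TPM on the unruptured and putative ruptured sides without hCG and of 6.14 and 3.43 TPM post-hCG, and a highest unruptured library post-hCG at 118 TPM. For Mmp16, which encodes a membrane-type MMP, it was −1.32 (SE 0.31, FDR 0.0035), with medians of 2.01 and 1.55 TPM without hCG and of 2.34 and 0.49 TPM post-hCG. For Lrp1, it was −0.68 (SE 0.22, FDR 0.043), with medians of 8.69 and 8.74 TPM without hCG and of 10.5 and 4.92 TPM post-hCG, and it did not pass without the filter on low counts (FDR 0.086), with thinned counts (FDR 0.061) or without the 5 libraries with oocyte markers (−0.42, FDR 0.187).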

How the results depend on the processing

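Of 498 member fold changes under alternatives (single libraries left out in the comparisons of sides not counted), 464 kept their direction and their side of the threshold, 17 lost and 3 gained a call, and 14 changed sign. The changes of sign were those of Mmp14 within letter G (0.034), Mmp11 within letter C (0.0077), Mmp19 between sides post-hCG (reported 0.01, library totals −0.14, thinned −0.019, limma −0.15 with and without a filter and −0.19 with pseudocount 0.1, letter C −0.046), and of the interactions of Timp2 (library totals −0.041, limma with 0.1 −0.19) and Reck (library totals −0.051, limma −0.41 with and without a filter, −0.73 with 0.1), none of them called except Mmp14 and Mmp11 over all libraries. Without single libraries, Mmp19 between sides post-hCG lay between −0.13 and 0.13. Of 306 values of the other named genes, 282 kept their call, 23 lost it, and Lrp1 within letter C turned to 0.033. Leaving out single libraries kept the members called between sides at 6 to 7 without hCG (1401 to 1724 genes) and at 4 to 5 post-hCG (1611 to 1904 genes).

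Within letter G, 3 genes and 0 members passed between sides without hCG (reported 1613 and 6), and within letter C, 748 genes and 3 members post-hCG (reported 1833 and 5). With limma, 1045, 1013 and 1047 genes passed between sides without hCG (log2(TPM + 1), log2(TPM + 0.1), no filter). For the interaction, 2 members passed with DESeq2 (with Mmp9), 0 with limma on log2(TPM + 1) with or without a filter, and 3 with the replicate block. Same-numbered libraries did not deviate together (mean correlation between −0.01 and 0.04, at most 2 pairs over 0.1 in a comparison). Sides of the same follicle need not deviate together, so this cannot tell whether numbers pair samples, and the labels do not say. The main tests treated all libraries as independent. With the replicate block, 1414, 1743, 4455, 4989 and 992 genes passed in the 5 comparisons, and Mmp14 (0.74, FDR 0.042) and Timp1 (1.14, FDR 0.037) joined Mmp19 in the interaction.

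Scaling to library totals moved the median log2 fold change of all genes to −0.14 between sides post-hCG, −0.25 and −0.33 with hCG on the unruptured and ruptured sides and −0.11 for the interaction. The calls higher and lower went from 862 and 971 to 397 and 1830 (limma on log2(TPM + 1) 202 and 2175), from 2365 and 2582 to 1455 and 3844 (limma 2200 and 1619), from 2532 and 2597 to 1376 and 4242 (limma 1570 and 3009) and, for the interaction, from 426 and 466 to 230 and 660 (limma 81 and 664). Between sides without hCG they went from 801 and 812 to 585 and 905 (limma 451 and 594).

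The balance between sides post-hCG turned from −0.16 to 0.017 without Timp1, 0.14 without Mmp2 and 0.065 with all MMP and TIMP genes. With hCG on the unruptured side (reported −2.83) it was 0.90 without Timp1, 0.011 as a difference of mean log2 levels and −1.96 from library-scaled counts (CPM), and on the ruptured side (reported −4.14) 0.13, −0.43 and −3.10. The interaction of the balance (reported −1.31) was −0.44 as a difference of mean log2 levels. The cause of these changes was not tested, beyond the genes left out. Members with few counts (Mmp9, Mmp15, Timp2, Reck) could not be tested in every comparison.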
